A study of Rattus norvegicus with 6 samples.

Results

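The oxidative stress and glutathione genes are 38 listed genes that make, use or remove reactive oxygen species and glutathione. They were chosen by name, as every probe of the array whose single gene symbol is one of the 38. Of these genes, 35 were measured, out of 12198 genes named by such probes, at 46 of the 33849 probes of the series table. Sod3 and Prdx5 lay on probes that name more than 1 gene, and Gsta4 had no probe with its symbol, so no value is given for these 3. All 46 were among the 33249 probes tested. The RNA was extracted from cultured brainstem cells of rats of 2 strains, with no treatment, age or sex stated. SHR is the spontaneously hypertensive rat, inbred for high blood pressure, and WKY is the Wistar Kyoto rat, the strain with normal pressure that serves as its control. Each strain had 3 single-colour CodeLink arrays, and for each array the cells of 3 dishes were combined; the design text describes them as biological replicates. Separate litters or culture days are not mentioned, so p-values measure only the spread between these pools, which may be technical. In pooled cultures, fewer cells of a type and less RNA per cell cannot be told apart.

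Cells meet reactive oxygen species with a chain of enzymes. Superoxide dismutases turn superoxide into hydrogen peroxide, which catalase, glutathione peroxidases and peroxiredoxins then remove. Glutathione is built from glutamate, cysteine and glycine, with glutamate-cysteine ligase as the rate-limiting step, and glutathione transferases attach it to reactive compounds. The transcription factor NRF2, encoded by Nfe2l2, switches on many of these genes by binding antioxidant response elements, and its inhibitor KEAP1 holds it back. NADPH oxidases work in the opposite direction and produce superoxide, which in brainstem centres of blood pressure control has been studied as a signal in hypertension.

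The promoters of the members are shown first, because NRF2 regulates many of these genes. Windows of 250 bases before to 50 after the annotated start were taken from RefSeq on build GRCr8 and searched for the core of the antioxidant response element, TGACNNNGC, on both strands (GCNNNGTCA on the other). By symbol, 32 of the 38 members were matched to a window, and Sod3, Prdx6, Gsr, Gstt1, Gstt2 and Hmox1 were not. The core was found in a window of 12 of these 32 genes (37.5%), against 13.1% of all 27457 genes with a window. The median GC content was 59.5% in the members' windows and 51.7% in all windows, and its part in the shares was not tested. A match describes the letters in the window and is not evidence of binding.

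The windows of 4 members, chosen after their values were seen, are given 5′ to 3′ on the gene's strand, with matches to the core in capitals. Gclc and Gclm encode the catalytic and the modifier subunit of glutamate-cysteine ligase, Gsta1 an alpha class glutathione transferase and Cyba the membrane subunit p22phox of the NADPH oxidases. Their windows are at chr8:87510226-87510525 on the plus strand, chr2:213031885-213032184 on the plus strand, chr9:31216483-31216782 on the minus strand and chr19:67404165-67404464 on the minus strand.
Gclc: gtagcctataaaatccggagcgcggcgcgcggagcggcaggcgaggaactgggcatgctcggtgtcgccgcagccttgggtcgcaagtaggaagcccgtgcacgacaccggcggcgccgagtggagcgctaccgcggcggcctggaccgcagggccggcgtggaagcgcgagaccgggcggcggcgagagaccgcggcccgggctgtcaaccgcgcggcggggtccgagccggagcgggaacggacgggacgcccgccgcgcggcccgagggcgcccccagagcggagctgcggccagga
Gclm: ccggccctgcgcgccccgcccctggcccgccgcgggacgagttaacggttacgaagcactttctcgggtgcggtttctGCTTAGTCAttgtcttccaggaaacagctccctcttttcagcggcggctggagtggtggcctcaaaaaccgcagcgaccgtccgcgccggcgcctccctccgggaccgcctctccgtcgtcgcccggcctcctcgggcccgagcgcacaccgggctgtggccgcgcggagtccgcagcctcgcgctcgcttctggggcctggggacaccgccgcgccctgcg
Gsta1: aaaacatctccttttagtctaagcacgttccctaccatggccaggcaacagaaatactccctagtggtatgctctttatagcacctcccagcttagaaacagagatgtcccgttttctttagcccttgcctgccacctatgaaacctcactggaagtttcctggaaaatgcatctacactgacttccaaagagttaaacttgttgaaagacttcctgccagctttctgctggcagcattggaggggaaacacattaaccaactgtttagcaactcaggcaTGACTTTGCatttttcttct
Cyba: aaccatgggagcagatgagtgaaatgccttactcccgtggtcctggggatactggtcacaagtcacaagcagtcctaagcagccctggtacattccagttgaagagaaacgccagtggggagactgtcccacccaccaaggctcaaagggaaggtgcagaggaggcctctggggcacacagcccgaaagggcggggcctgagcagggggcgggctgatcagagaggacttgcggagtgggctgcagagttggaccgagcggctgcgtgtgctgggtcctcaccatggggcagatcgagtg
The window of Gclm held 1 match on the other strand, which begins 172 bases before the start, and that of Gsta1 held 1 match on the gene's strand, 30 bases after the start. The windows of Gclc and Cyba held none, which says only that these letters are not in these 300 bases.

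Among the other measured members 9 had a match, and the stretches around all those that begin before the start are shown for comparison with the one in Gclm. They belong to Gstp1, the pi class transferase, Gstm5, a mu class transferase with 2 matches, Prdx1, a peroxiredoxin, Txnrd1, the cytosolic thioredoxin reductase, Sod2, the mitochondrial superoxide dismutase, Hmox2, the constitutive heme oxygenase, and Ncf1, the oxidase subunit p47phox.
Gstp1: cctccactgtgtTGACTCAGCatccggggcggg
Gstm5: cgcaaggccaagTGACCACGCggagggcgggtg
Gstm5: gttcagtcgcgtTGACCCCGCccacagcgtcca
Prdx1: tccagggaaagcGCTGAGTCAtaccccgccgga
Txnrd1: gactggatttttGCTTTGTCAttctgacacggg
Sod2: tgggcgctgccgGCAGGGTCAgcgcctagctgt
Hmox2: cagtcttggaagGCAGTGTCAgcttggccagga
Ncf1: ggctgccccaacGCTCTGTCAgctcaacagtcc
In the order shown they lie at chr1:210769746-210769778, chr2:198219644-198219676, chr2:198219704-198219736, chr5:135383759-135383791, chr7:22755962-22755994, chr1:50050183-50050215, chr10:11337687-11337719 and chr12:28121714-28121746, with Gstm5, Prdx1 and Ncf1 on the plus strand and the others on the minus strand. In Prdx4 and Nfe2l2 the match lay after the start. Over the 11 measured members with the core, 6 of 15 probes were brighter in SHR, with a median difference of -0.02, and over the 19 members with a window and no match, 17 of 25 were, with a median of 0.04.

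**Figure D1:**
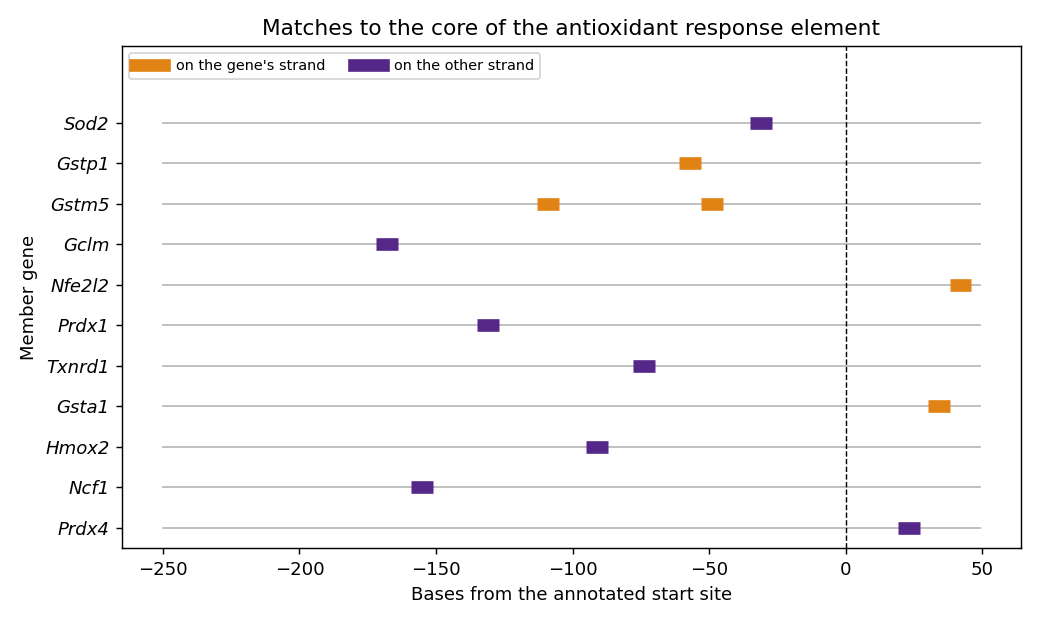
Positions of the matches to the core of the antioxidant response element in the windows of 11 measured members, in bases from the annotated start site (dashed line), with colours for the strand of the match. The match of Gclm begins 172 bases before the start and that of Gsta1 30 bases after it.

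All values that follow are log2 intensities after the submitters' normalization between arrays, and differences are SHR minus WKY with the SE of limma's fit. None of the 46 member probes passed a Benjamini-Hochberg adjusted p of 0.05 in limma over all 33249 probes tested, where 0 probes (0%) passed and the smallest adjusted p of a member was 0.538. At an unadjusted p under 0.05 stood 3 member probes (6.52%), against 7.65% of all probes. One of them, Gclm, was brighter in SHR (3.65% of all probes were), and 2, Gsta1 and Cyba, were dimmer (4.01% of all probes). Over all probes such p-values fell on 1212 brighter and 1333 dimmer probes. That split depended on scaling, with 904 and 1786 after median centring of the per-sample intensities. It was 1542 and 846 without normalization, which here means the per-sample intensities as given, although the sample titles call them normalized. There the median of all probes was 0.12 and 41 of 46 members were above 0. The 3 SHR values lay wholly above the 3 WKY values at 4 of 45 member probes measured on all arrays (6.07% of all such probes) and wholly below at 4 (7.30%), together 17.8% against 13.4% of all such probes. Over the 46 probes, 27 differences were above 0 and the median was 0.04, against -0.01 over all probes. No member differed by 2-fold or more, and 43 of 46 differences were under 0.5 in size (93.5%, against 86.0% of all probes). The median residual SD was 0.19 for member probes and 0.24 for all.

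**Figure D2:**
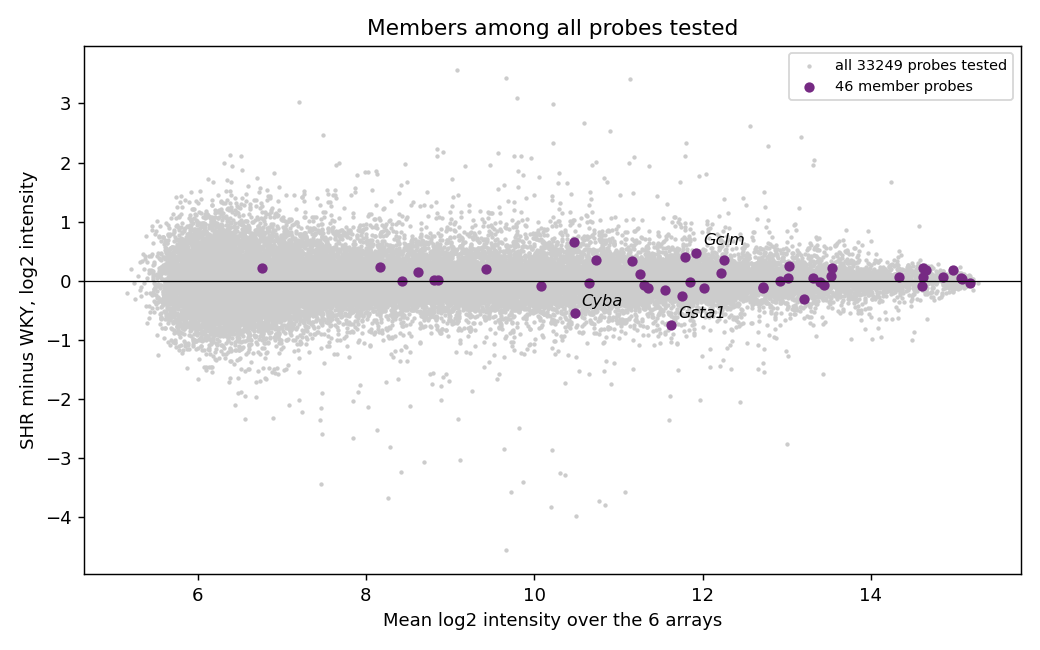
Difference between strains (SHR minus WKY, log2 intensity) against mean log2 intensity over the 6 arrays, for all 33249 probes tested (grey) and the 46 member probes (purple). Member probes lie between -0.75 and 0.65, and the 3 with an unadjusted p under 0.05 are named.

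Median per-sample signals of the arrays differed, at 439 to 571 intensity units, although the sample titles call them normalized. At the top of the range, 5 member probes (Gpx1, Prdx2, Prdx6, Txn1 and Gstp1) lay in the top 1% of every array, where log2 signals end at 15.34, so differences at these probes can be compressed. The cultures carried strong signals of glia, with 4 of 11 astrocyte markers and 7 of 15 microglia markers in the top 1% of every array, against 0 of 9 neuron markers. Of 13 neuron markers listed, Tubb3, Map2, Syt1 and Rbfox3 had no probe naming only 1 gene and were not counted. Markers of fibroblasts and meningeal cells stood higher in SHR, with 11 of 14 above 0, 6 of them at an unadjusted p under 0.05, and summed intensities of 60120 to 69535 in SHR and 40076 to 51309 in WKY. Markers of choroid plexus and ependyma stood higher at 7 of 10 genes, with a median of 0.62. At an unadjusted p under 0.05, 3 were brighter and 1 dimmer in SHR. Over all named genes at their brightest probes, 3.44% were brighter and 3.42% dimmer at such a p. Summed intensities of the choroid plexus and ependyma markers overlapped, at 19411 to 43000 in SHR and 15271 to 34245 in WKY. The mean of the 8 measured on every array, each centred, was 0.41, -0.04 and 0.77 in SHR against -0.30, -0.66 and -0.17 in WKY. The same mean of fibroblast and meningeal markers was 0.04, 0.40 and 0.55 against -0.24, -0.24 and -0.51. That of astrocyte markers was 0.078, 0.055 and 0.083 against -0.016, -0.078 and -0.121. None of these means overlapped, and each was highest on SHR 3, as the mean of the glutamate-cysteine ligase probes was. The ligase mean was lowest on WKY 3, as the fibroblast and astrocyte means were, and the choroid plexus mean on WKY 2. Markers of the oligodendrocyte lineage stood lower at 14 of 15 genes, with summed intensities of 83161 to 172650 in SHR and 163710 to 197150 in WKY. The part of these cell types in the differences of the members was not tested.

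In the class of glutathione synthesis and recycling 7 of 8 probes were brighter in SHR, with a median difference of 0.34, against medians of -0.11 to 0.12 in the other classes. Of these 8 probes, 5 belong to Gclc and Gclm. At the brightest probe of each gene the differences were 0.35 for Gclc, 0.48 for Gclm, 0.11 for Gss and -0.12 for Gsr. The class median over all its probes was 0.21 without SHR 3 and 0.51 without normalization. Both subunits of glutamate-cysteine ligase were brighter in SHR at all 5 of their probes, by 1.25-fold to 1.39-fold. At probe 155095, Gclm measured 12.13, 12.09 and 12.27 in SHR against 11.82, 11.62 and 11.61 in WKY. The 3 SHR arrays all lay above the 3 WKY arrays, with a difference of 0.48 ± 0.13 (95% interval 0.16 to 0.79, adjusted p = 0.538 in limma). At probe 139079, Gclm measured 10.82, 10.70 and 11.21 in SHR against 10.76, 10.31 and 10.62 in WKY, so that the strains overlapped (0.35 ± 0.20). Gclm at probe 155095 had an unadjusted p under 0.05 in all 16 alternative settings, with differences from 0.43 to 0.65 and adjusted p from 0.387 to 0.889.

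Gclc, the catalytic subunit, gave 0.40 ± 0.19 at probe 216103, with 11.89, 11.87 and 12.20 in SHR against 11.73, 11.76 and 11.28 in WKY. The strains did not overlap there, and WKY 3 was the lowest array; without it the difference was 0.24. At probe 96029 it measured 12.52, 12.22 and 12.52 in SHR against 12.30, 11.88 and 12.04 in WKY (0.35 ± 0.17). At probe 211098 it measured 11.00, 11.33 and 11.62 in SHR against 11.13, 11.16 and 10.70 in WKY (0.33 ± 0.21). At both of these probes 1 SHR array lay below the highest WKY array. The mean of the 5 ligase probes, each centred on its mean over the 6 arrays, was 0.10, 0.07 and 0.39 in SHR against -0.02, -0.23 and -0.32 in WKY. SHR 3 was the highest and WKY 3 the lowest array, and SHR 1, SHR 2 and WKY 1 lay close together. All 5 probes stayed above 0 in all 16 alternative settings, between 0.18 and 0.65. The 5 probes share 2 genes and the same 6 pools and are not independent.

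Gss, glutathione synthetase, which adds glycine in the last step, differed by 0.11 ± 0.24, with 11.36, 10.89 and 11.68 in SHR against 11.48, 11.01 and 11.11 in WKY. The strains overlapped. The probes of Gsr, glutathione reductase, which regenerates glutathione from its oxidised form, went in opposite directions. Probe 180064 measured 8.24, 8.27 and 8.31 in SHR against 7.95, 8.14 and 8.06 in WKY (0.23 ± 0.12), and probe 300021 measured 12.64, 12.63 and 12.69 in SHR against 12.88, 12.71 and 12.74 in WKY (-0.12 ± 0.12). In both cases the strains did not overlap, but the 95% intervals included 0, at -0.06 to 0.52 and -0.41 to 0.17, and without normalization probe 300021 was at 0.03.

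**Figure D3:**
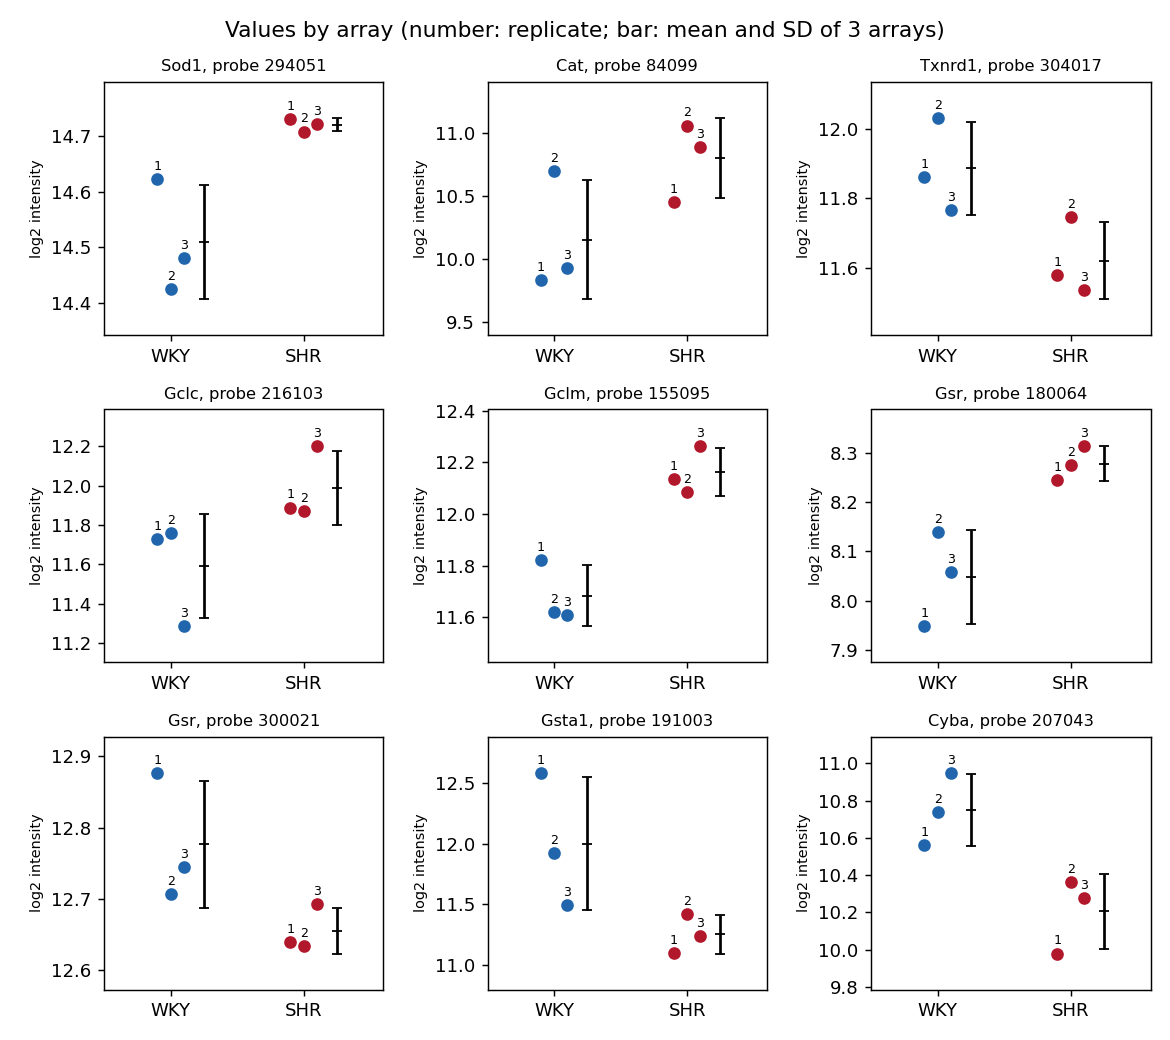
Log2 intensity on each array (numbered points, WKY blue and SHR red, with mean and SD of 3 arrays as black bars) for the 8 member probes whose strains did not overlap and for Cat; each panel has its own axis. Gclm at probe 155095 lies between 12.09 and 12.27 in SHR and between 11.61 and 11.82 in WKY, and the 2 Gsr probes differ in opposite directions, except without normalization, where probe 300021 is at 0.03.

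Genes of glutathione supply and breakdown did not lean the same way as the ligase, with 6 of 15 above 0 and a median of -0.07. Slc7a11, the cystine transporter that supplies cysteine for glutathione and was chosen here after its values were seen, was dimmer in SHR at its 3 probes. At the brightest of them it measured 12.91, 13.29 and 12.51 in SHR against 13.23, 13.62 and 13.38 in WKY (-0.51 ± 0.23, adjusted p = 0.661 in limma), with SHR 2 within the WKY range. The other probes gave -0.27 ± 0.16 and -1.11 ± 0.55, with overlap at each and signals mostly below the array median of 9.02. At the probe with -1.11, SHR 3 was the lowest array, at 6.45. Chac2, which breaks down glutathione and was also chosen after its values were seen, was brighter in SHR at both probes, by 0.28 ± 0.17 at the brightest and 0.38 ± 0.14 at the other (unadjusted p under 0.05, adjusted p = 0.626 in limma). Ggt6, of the gamma-glutamyltransferase family, gave 7.15, 7.18 and 7.30 in SHR against 7.93, 7.72 and 7.59 in WKY. Its difference was -0.53 ± 0.14 with no overlap (adjusted p = 0.531 in limma), at signals below the array median of 9.02. Anpep, an aminopeptidase, gave -0.61 ± 0.27 at its brightest probe and 0.30 ± 0.34 at the other.

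Glutathione transferases had 2 of 7 probes above 0 and a median difference of -0.05, which was 0.08 without normalization. Gsta1 had the largest difference of all members, at 11.10, 11.42 and 11.24 in SHR against 12.59, 11.93 and 11.49 in WKY. It was 1.68-fold dimmer in SHR (-0.75 ± 0.28, 95% interval -1.43 to -0.06, adjusted p = 0.623 in limma), and the strains did not overlap. WKY 1 stood far above the other arrays, and without it the difference was -0.46. The unadjusted p was under 0.05 in 8 of 16 alternatives, and was not when SHR 1, SHR 2, SHR 3, WKY 1 or WKY 2 was left out. Of the other alpha class genes with a probe, Gsta2 gave -0.15 ± 0.13 and Gsta3 0.52 ± 0.36. Transferases of one class are similar in sequence, and whether the probes bind more than 1 of them was not tested.

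Gstp1, the pi class transferase, had the lowest residual SD of the members, 0.03, with 15.14, 15.20 and 15.12 in SHR against 15.18, 15.20 and 15.22 in WKY (-0.05 ± 0.11), at the top of the signal range. Gstm5 (-0.02 ± 0.20), Gstt2 (-0.12 ± 0.14) and Mgst1, a membrane-bound transferase (-0.07 ± 0.13), overlapped between strains, as did Gstt1 (0.19 ± 0.19). For Gstm5, WKY 1 was the highest array at 13.80, against 13.13 to 13.51 on the others. Gstm2 had no value on WKY 3, where the per-sample table holds the missing code, and its difference of 0.01 ± 0.38 rests on 5 arrays. Among 16 further peroxidases and transferases, 9 were above 0 and none had an unadjusted p under 0.05, with Gpx8 at 0.29 ± 0.13 and Gstt3 at 0.36 ± 0.20 leading. The strains did not overlap for Gpx8, a peroxidase of the endoplasmic reticulum, with 14.19, 14.07 and 14.29 in SHR against 14.00, 13.75 and 13.92 in WKY.

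Among the enzymes that remove superoxide and hydrogen peroxide, Cat had the difference of largest size. The 95% intervals were wide at some, such as -1.23 to 0.60 for Sod2 at probe 156010 and -0.68 to 1.16 for Gpx3 at probe 36044. Sod1, the cytosolic dismutase, measured 14.73, 14.71 and 14.72 in SHR against 14.62, 14.42 and 14.48 in WKY at probe 294051, with no overlap (0.21 ± 0.12). At its brightest probe, 8030, it measured 14.82, 14.56 and 14.56 in SHR against 14.64, 14.45 and 14.67 in WKY, with overlap (0.06 ± 0.14). Cat, catalase, was 1.57-fold brighter in SHR, at 10.45, 11.06 and 10.89 against 9.83, 10.70 and 9.93 (0.65 ± 0.28, 95% interval -0.03 to 1.33, adjusted p = 0.655 in limma). WKY 2 lay above SHR 1, so the strains overlapped, and the difference was between 0.49 and 0.92 when single arrays were left out. Gpx1, the cytosolic glutathione peroxidase, measured 15.11, 15.03 and 15.11 in SHR against 14.87, 15.15 and 15.11 in WKY (0.04 ± 0.13, 95% interval -0.28 to 0.36), and was at -0.07 after cyclic loess and -0.11 after median centring.

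Gpx3, the secreted glutathione peroxidase, spread more within WKY than within SHR at both probes, from 12.15 to 13.70 against 12.92 to 13.31 at probe 36044 (0.24 ± 0.38) and from 12.59 to 13.43 against 12.97 to 13.06 at probe 320063 (0.04 ± 0.22). WKY 1 was the highest and WKY 3 the lowest array at both. Gpx4, which removes lipid peroxides, gave 0.07 ± 0.14 and -0.01 ± 0.13 at its probes. Of the peroxiredoxins, thiol enzymes that reduce peroxides, 4 of 5 were above 0, with a median of 0.08. Prdx1 differed by 0.19 ± 0.15, Prdx6 by 0.18 ± 0.17, Prdx4 by 0.08 ± 0.14, Prdx2 by 0.06 ± 0.13 and Prdx3, the mitochondrial one, by -0.07 ± 0.14, and the strains overlapped at each. Txn1, thioredoxin, measured between 15.02 and 15.15 on the 6 arrays (0.02 ± 0.12).

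The probes of Txnrd1, the cytosolic thioredoxin reductase, went in opposite directions, as those of Gsr did. Probe 304017 measured 11.58, 11.75 and 11.54 in SHR against 11.86, 12.03 and 11.77 in WKY, with no overlap (-0.27 ± 0.14), and probe 54009 gave 0.15 ± 0.20 with overlap. Txnrd2, the mitochondrial reductase, gave -0.09 ± 0.14. Of 9 members with several probes, the probes had the same sign for 5 (Sod1, Sod2, Gpx3, Gclc and Gclm) and opposite signs for 4 (Gpx4, Txnrd1, Gsr and Cybb). The probes of Gpx4, Txnrd1 and Gsr with the lower signal had SHR means of 8.43, 8.69 and 8.28, below the array median of 9.02. The gap between the probes of a gene was largest for Txnrd1, at 0.42, and smallest for Gclc, at 0.07. Among glutaredoxins, glyoxalase and thiol repair genes 12 of 18 were above 0 and none had an unadjusted p under 0.05; Park7, a redox-sensitive protein, gave 0.36 ± 0.17 and Msra, a methionine sulfoxide reductase, -0.40 ± 0.23.

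**Figure D4:**
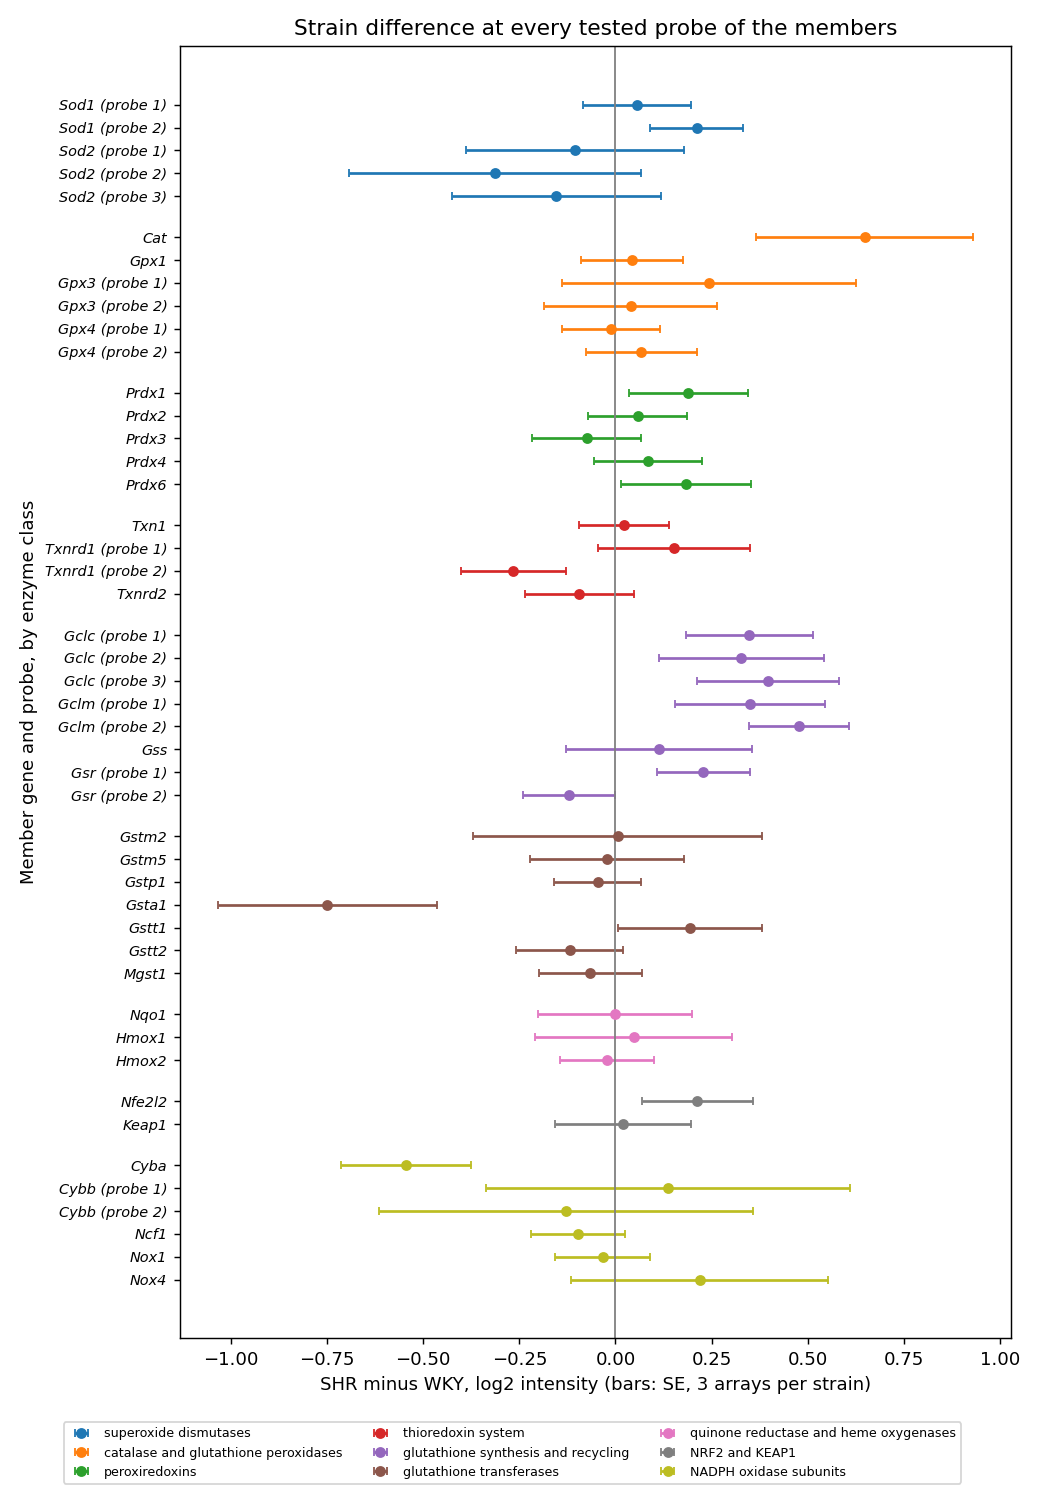
Difference between strains (SHR minus WKY, log2 intensity, bars SE of limma's fit, 3 arrays per strain except 2 of WKY for Gstm2) at each of the 46 member probes, grouped and coloured by enzyme class. All 5 probes of Gclc and Gclm lie to the right of 0, and Gsta1 and Cyba lie farthest to the left.

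The probes of NRF2, KEAP1, the quinone reductase Nqo1 and the heme oxygenases differed by -0.02 to 0.21, and the strains overlapped at each of them. Nfe2l2 measured 13.58, 13.67 and 13.68 in SHR against 13.65, 13.34 and 13.30 in WKY (0.21 ± 0.14, 95% interval -0.14 to 0.56), with WKY 1 within the SHR range. Keap1 differed by 0.02 ± 0.18. Nqo1, a quinone reductase widely used as a readout of NRF2, measured 12.93, 12.69 and 13.14 in SHR against 13.25, 12.76 and 12.74 in WKY, a difference of -0.00059 ± 0.20 (95% interval -0.48 to 0.48) whose sign depended on the scaling, at 0.15 without normalization. Hmox1, the inducible heme oxygenase, measured 13.48, 13.40 and 13.11 in SHR against 13.75, 12.82 and 13.28 in WKY (0.05 ± 0.26, 95% interval -0.57 to 0.67), and Hmox2, the constitutive isoform, gave -0.02 ± 0.12. These intervals do not show that the strains were alike. Of 23 NRF2 partners and other targets 10 were above 0, and 1, Cbr1, a carbonyl reductase, had an unadjusted p under 0.05. Cbr1 was dimmer in SHR, at 7.30, 8.55 and 7.50 against 8.52, 8.92 and 8.81 (-0.97 ± 0.34, adjusted p = 0.587 in limma). Its SHR 2 value lay above WKY 1, so the strains overlapped, and every value was below the array median of 9.02. Nqo2, another quinone reductase, gave 0.49 ± 0.21.

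At the brightest probe of each of the other 108 pathway genes tested, 56 were above 0, 0 passed the adjusted threshold in limma, and at an unadjusted p under 0.05 there were 0 brighter and 3 dimmer in SHR. Over all named genes at their brightest probes, 6.86% of 12056 genes had such a p, 3.44% brighter and 3.42% dimmer in SHR. The 3 genes were Ggt6, Cbr1 and Aldh1l1, a folate enzyme that yields NADPH and marks astrocytes (-0.45 ± 0.16). Aldh1l1 was the lowest of 11 astrocyte markers, of which 6 were above 0, with a median of 0.06 and a highest difference of 1.28. At an unadjusted p under 0.05, 1 of these markers was brighter and 1 dimmer in SHR. In the NADPH supply list 4 of 8 were above 0, and Pgd, of the pentose phosphate pathway, gave -0.25 ± 0.13 with no overlap. Metal binding and other antioxidant proteins had 9 of 15 above 0, with Pon3, a paraoxonase, at 0.97 ± 0.61 and Cp, ceruloplasmin, at 0.24 ± 0.20.

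Of the NADPH oxidase subunits, Cyba was the 1 member with an unadjusted p under 0.05. It measured 9.98, 10.36 and 10.28 in SHR against 10.56, 10.74 and 10.95 in WKY. All SHR arrays lay below all WKY arrays, and the signal was 1.46-fold dimmer in SHR (-0.54 ± 0.17, 95% interval -0.95 to -0.14, adjusted p = 0.572 in limma, and -0.64 to -0.35 over the alternatives). Its unadjusted p was above 0.05 without normalization and when SHR 1 or WKY 3 was left out. Cybb, the catalytic subunit of the phagocyte oxidase, which needs p22phox, had wide 95% intervals at both probes, -1.30 to 1.04 at probe 115037, and both include the difference of Cyba. At probe 93040 it measured 12.36, 12.79 and 11.72 in SHR against 11.20, 12.40 and 12.86 in WKY (0.14 ± 0.47), and at probe 115037 it measured 12.08, 12.33 and 11.43 in SHR against 11.01, 12.56 and 12.65 in WKY (-0.13 ± 0.49). WKY 1 was the lowest array at both probes, and the strains overlapped widely.

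Ncf1, the cytosolic organiser subunit p47phox, measured 14.55, 14.47 and 14.65 in SHR against 14.73, 14.62 and 14.61 in WKY (-0.10 ± 0.12). Nox1 gave -0.03 ± 0.12 and Nox4, an oxidase that makes mainly hydrogen peroxide, 0.22 ± 0.33 with values from 6.01 to 7.19. Cyba and Cybb are expressed by microglia, and 12 of 15 microglia markers were dimmer in SHR, none at an unadjusted p under 0.05. Their summed intensities overlapped, at 274240 to 277060 in SHR and 273570 to 298770 in WKY, and 7 of the 15 lay in the top 1% of every array, where differences can be compressed. The part of microglia in the difference of Cyba was not tested. Of 13 other oxidase subunits and oxidant sources 6 were above 0 and none had an unadjusted p under 0.05, with Duox1, a dual oxidase, at 0.44 ± 0.41 and Cyp2e1, a cytochrome P450, at -0.41 ± 0.29 at its brightest probe and 0.14 ± 0.26 at the other.

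Cybb and Sod2 varied more between pools of a strain than between strains, and so did other members. The residual SD was 0.57 against a difference of 0.24 at Gpx3 probe 36044, and 0.36 against 0.05 at Hmox1. The reverse held at others, such as Gclm at probe 155095, with 0.11 against 0.48. At the probes of Cybb the residual SD was 0.71 and 0.73, above 94.4% and 94.9% of all probes, and at those of Sod2 it was 0.40, 0.56 and 0.38. The mean of 12 interferon response genes, each centred over the 6 arrays, was -0.27, 0.54 and -0.50 in SHR against -1.71, 0.91 and 1.01 in WKY. Cybb was lowest on WKY 1 and next lowest on SHR 3 at both probes, as the interferon mean was, and highest on WKY 3. Sod2, a gene induced by inflammatory signals, was highest on WKY 3 at its 3 probes, at 13.27, 14.17 and 12.06, but it was not lowest on WKY 1: its lowest array was WKY 2, at 12.32, 12.75 and 11.13. The strain differences of Sod2 were -0.11 ± 0.28, -0.31 ± 0.38 and -0.15 ± 0.27, with overlap at each probe. These orders were noted after the values were seen, and what set the interferon genes apart between pools was not tested.

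**Figure D5:**
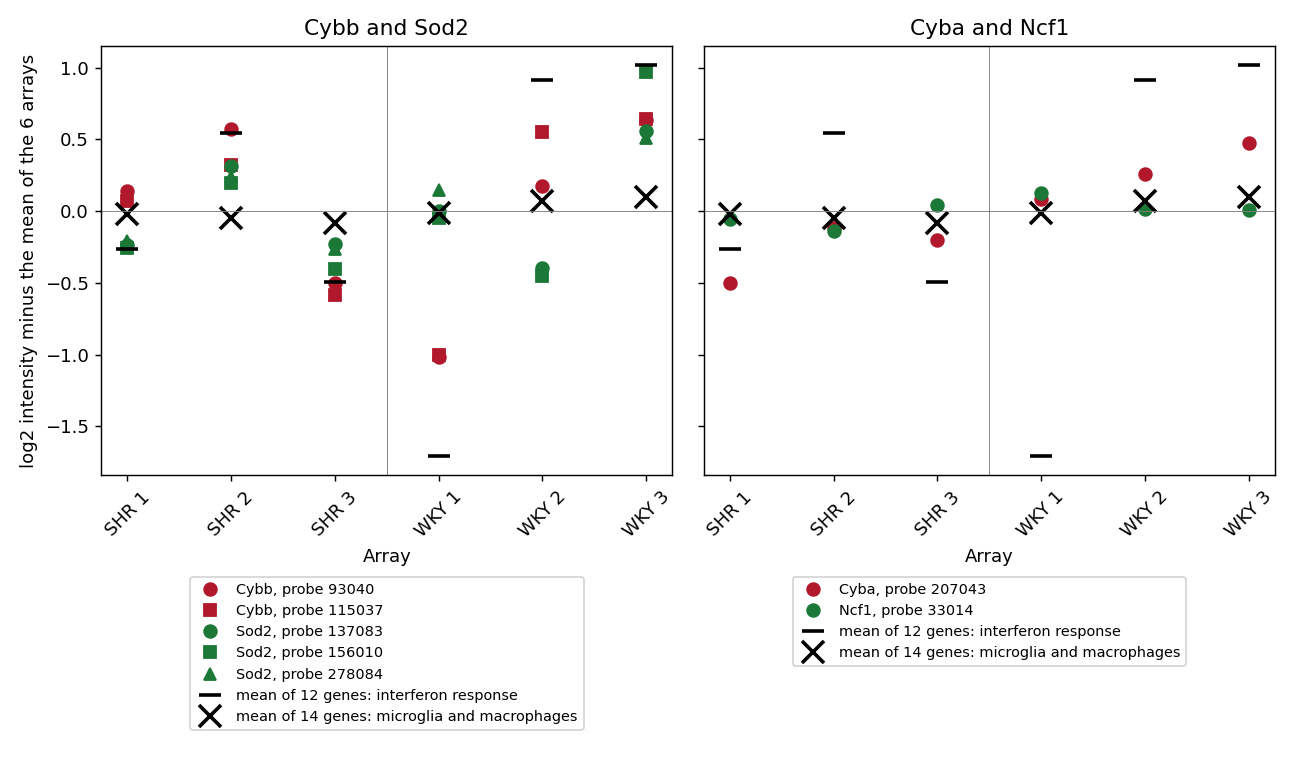
Log2 intensity minus the mean of the 6 arrays for Cybb and Sod2 (left) and for Cyba and Ncf1 (right) on each array, with the mean of 12 interferon response genes (black bars) and of 14 microglia and macrophage genes (black crosses). Cybb and the interferon mean are lowest on WKY 1, where the interferon mean is -1.71, while the microglia mean stays between -0.08 and 0.10.

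Single pools stood out across the members. Of the 45 member probes measured on all arrays, WKY 1 was the highest array at 14 and SHR 3 at 13, where they were highest at 16.4% and 19.3% of all such probes, and WKY 2 was the lowest at 13, against 20.7%. The class mean of glutathione transferases, without Gstm2, was highest on WKY 1, at 0.28 against -0.11 to -0.03 on the other arrays. Gsta1, Gstm5, Gstt2 and Mgst1 were highest there, but Gstp1 was highest on WKY 3 and Gstt1 on SHR 3. Nqo1 and Hmox1 were also highest on WKY 1, at 13.25 and 13.75, while Hmox2 was highest on SHR 3, at 11.94. The mean of all members moved little, from -0.10 on WKY 2 to 0.06 on SHR 3.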

How the data were processed

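Single-colour CodeLink arrays measured RNA of cultured brainstem cells, 3 arrays for each of SHR and WKY. Per the labels' design text, spot intensities with background subtracted were extracted by the authors, who left out spots below the negative controls plus 2 SD and quantile normalized intensities between arrays; no software version or genome build is stated there. The deposited intensity values of the series table were the main source, and the per-sample intensities, whose medians differed between arrays, were an alternative. The sample titles call the per-sample intensities normalized, so results without normalization are those with none added here. Values not above 0 (615 per array) were treated as missing, and the rest were taken to log2 with no offset. Of 33849 probes, 33249 had all 3 values for a strain and 2 or more for its counterpart, and were tested with limma 3.58.1 (R 4.3.3, lmFit and eBayes, two-sided, Benjamini-Hochberg over all probes, threshold 0.05); an unadjusted p under 0.05 serves as a description. The test was checked on simulated independent arrays, where calls of changed probes were counted only at changes larger than any member difference. The number of arrays limits the precision.

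The platform annotation gave 1 gene symbol for 16753 probes, and members were matched by that symbol. All members are named; values on every array are given for member probes with an unadjusted p under 0.05, without overlap or with a difference of at least 1, for the brightest probes of 8 preset members, and for some others added for context. Of each pathway list the genes with the lowest p are named. Members and lists were chosen with earlier results of these data known. Promoter windows came from RefSeq. Alternatives changed normalization, offset, probe filter, prior, array weights, threshold and replicate block, and left out each array.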

Additional observations from a re-analysis of the deposited data

How the results depend on the processing

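Over all probes, 0 were called in limma at an adjusted p of 0.05, with 2545 at an unadjusted p under 0.05. The count called was 5 with array weights, 28 with an intensity trend and robust prior, 1 with an offset of 50, 5 over probes valid on all 6 arrays, 18 without the dimmest 25% of probes, 13 at an adjusted p of 0.10, and 0 to 0 when single arrays were left out. No member probe was called in any of these fits. Member probes with an unadjusted p under 0.05 numbered 3, and 7 with trend and robust prior, which added Sod1 (probe 294051), Cat and 2 probes of Gclc (15.2% of member probes, against 7.97% of all probes); they numbered 2 to 4 without single arrays. Member probes without overlap numbered 8, 4 without normalization (8.89%, against 11.7% of all probes) and 8 to 18 without single arrays, where fewer arrays make it easier not to overlap: 13 without SHR 1 (28.9%, against 22.3% of all probes), 13 without SHR 2 (28.9% against 29.8%) and 18 without WKY 1 (40.0% against 31.1%). The median member difference of 0.04 was 0.18 without normalization, where the median of all probes was 0.12, and -0.0042 to 0.084 without single arrays.

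Without single arrays, class medians ranged from -0.33 to 0.098 for superoxide dismutases, 0.013 to 0.20 for catalase and peroxidases, and 0.21 to 0.42 for glutathione synthesis and recycling. Of 46 member probes, 17 kept their sign in every alternative that gave a value, which was all 16 except for Gstm2 (13) and Nox4 (15). Sod1 at probe 8030 ranged from -0.029 to 0.10 without single arrays. Gpx1 was -0.072 after cyclic loess, -0.11 after median centring and -0.046 to 0.096 without single arrays. Gsr at probe 300021 was 0.029 without normalization. Nqo1 was 0.042 with array weights, 0.0013 after median centring, 0.15 without normalization and -0.11 to 0.17 without single arrays. Hmox1 ranged from -0.18 to 0.28 without single arrays. Cybb at probe 93040 was -0.00051 with array weights and -0.34 to 0.49 without single arrays. The cause was not tested for any of these.

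The replicate numbers are not shown to pair the pools: same-numbered arrays had correlations of 0.0011, 0.2202 and -0.1288 of their deviations from the strain means. With the replicate block, 0 probes were called and 3 member probes had an unadjusted p under 0.05, Cat, Gclm and Cyba.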
